A study of Mus musculus with 6 samples.

Results

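Mitochondrial ribosomal proteins are encoded by nuclear genes whose symbols begin with Mrpl, for the large subunit, or Mrps, for the small subunit. All RefSeq protein-coding genes of the mouse assembly GRCm38.p6 (the assembly that mm10 names) on chromosomes 1 to 19 and X whose symbol is Mrpl or Mrps with a number were taken, which gave 78 of 21631 genes, 49 of the large and 29 of the small subunit by symbol. Acetylation of histone H3 at lysine 27 (H3K27ac), found at promoters and enhancers in use, was mapped there by CUT&RUN, in which an antibody directs a nuclease to cut out the marked chromatin for sequencing. Left ventricles of FVB mice, 8 to 12 weeks old, gave the nuclei, which were sorted for PCM-1, an antigen used to collect cardiomyocyte nuclei. Wild type (WT) nuclei gave 3 libraries, and nuclei labelled HOM, from the Nppa-Nppb double knockout, gave 3. Nppa and Nppb encode natriuretic peptides. The growth protocol, which is the same for every library, names a Myh6-MerCreMer line (a tamoxifen-inducible Cre driven by the cardiomyocyte promoter of Myh6), an nTnG reporter line and a Sun1-GFP nuclear reporter line, bred on FVB/N. It does not say which of these alleles the profiled mice carried. The labels give neither the ends of the deletion nor separate mice, so differences are set against a spread between libraries that may be technical. A gene is called marked in a library when a peak of that library's list lay within 1 kb of either annotated gene end.

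The mitochondrial ribosome translates the few proteins that mitochondrial DNA encodes, all of them subunits of the respiratory chain and ATP synthase. Its RNAs come from mitochondrial DNA, while every protein is made in the cytosol and imported. Some of the proteins descend from those of the bacterial ribosome and others were added in the mitochondrial lineage. Heart muscle is rich in mitochondria and depends on oxidative phosphorylation.

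Promoter sequences were matched for 69 of the 78 genes in RefSeq (GRCm38.p6). Mrpl54, Mrpl13, Mrps35, Mrps28, Mrpl19, Mrpl4, Mrpl15, Mrpl38 and Mrps34 had no entry. The stretches below come from genes that had a peak within 1 kb of the listed start in 4 or 5 of the 6 libraries. They were picked from a larger number of such genes to show both layouts of the family, starts that face an oppositely transcribed gene and starts without one. Every printed stretch holds motif letters, but this is not so for all such genes. The stretch of Mrpl47, with a peak near its start in 5 libraries, holds none of the letters searched and is not printed. No start of the family had a peak lying over it in more than 2 libraries. Each stretch is written 5′ to 3′ in the direction of the named gene and stops at the base before its start. It is cut where a neighbouring gene begins. The stretch of Mrpl34 is chr8:71464708-71464925 on the plus strand, the 218 bases up to Abhd8. That of Mrpl51, chr6:125192101-125192199 on the plus strand, reaches Ncapd2 after 99 bases. Mrps12 has chr7:28741822-28741956 on the minus strand, the 135 bases up to Sars2, which encodes the mitochondrial seryl-tRNA synthetase. Mrps11 on the plus strand and Mrpl46 on the minus strand, one gene of each subunit, share the 41 bases of chr7:78783090-78783130. Mrpl39 (chr16:84735245-84735494, minus strand) and Mrpl12 (chr11:120484387-120484636, plus strand) have 250 bases that overlap no annotated gene. Capitals mark exact matches, on either strand, to the ETS/GABP letters CCGGAAG (Mrpl34, Mrpl51), the SP letters GGGCGG (Mrpl51, Mrps11 and, as CCGCCC, Mrps12), the CCAAT box (Mrps12, Mrpl39) or the NRF1 letters GCGCANGCG (Mrpl39, Mrpl12).
Mrpl34: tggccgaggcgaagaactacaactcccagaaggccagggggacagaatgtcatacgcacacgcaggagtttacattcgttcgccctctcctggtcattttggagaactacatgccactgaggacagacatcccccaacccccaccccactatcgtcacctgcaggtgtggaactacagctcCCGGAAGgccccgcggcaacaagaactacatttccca
Mrpl51: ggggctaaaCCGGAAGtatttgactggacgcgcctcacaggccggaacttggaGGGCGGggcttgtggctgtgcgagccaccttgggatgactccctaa
Mrps12: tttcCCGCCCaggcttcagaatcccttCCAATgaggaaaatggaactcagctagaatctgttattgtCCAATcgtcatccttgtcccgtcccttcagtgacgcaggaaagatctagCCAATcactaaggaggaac
Mrps11: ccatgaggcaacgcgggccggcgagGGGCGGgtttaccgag
Mrpl39: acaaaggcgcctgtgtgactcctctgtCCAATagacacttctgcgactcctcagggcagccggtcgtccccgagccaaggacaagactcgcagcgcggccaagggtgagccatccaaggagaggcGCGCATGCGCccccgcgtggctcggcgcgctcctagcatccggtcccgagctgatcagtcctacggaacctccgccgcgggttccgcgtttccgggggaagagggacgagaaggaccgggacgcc
Mrpl12: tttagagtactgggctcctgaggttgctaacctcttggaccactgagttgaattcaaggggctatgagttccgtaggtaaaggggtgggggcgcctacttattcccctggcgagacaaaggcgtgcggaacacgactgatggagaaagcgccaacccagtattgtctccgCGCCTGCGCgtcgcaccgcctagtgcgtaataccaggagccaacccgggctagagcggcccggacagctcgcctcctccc

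These letters were counted in the full promoter windows, from 250 bases before to 50 after the start, on both strands, in the 69 genes and in all 17274 promoters with an entry. The ETS/GABP letters occurred in 24 of 69 (34.8%), beside 12.1% of all promoters and 19.8% of promoters of genes marked in at least 1 library. The NRF1 letters occurred in 16 (23.2%), beside 8.96% and 15.1%, and the YY1 letters AAGATGGCG in 8 (11.6%), beside 1.92% and 3.55%. GABP, NRF1 and YY1, after which these letters are named, are factors known for promoters of nuclear genes of mitochondrial proteins. The SP letters were in 49.3%, beside 46.9% of all promoters and 65.2% of those of marked genes. The CCAAT box was in 39.1%, beside 39.6% and 40.2%, and the CRE letters TGACGTCA in 2.90%, beside 2.36% and 3.61%. TATAAA was found in 4 of the 69 promoters (5.80%), beside 13.4% of all and 6.96% of those of marked genes. The ERR letters TCAAGGTCA were in none, beside 0.336% and 0.232%. In the sequence printed for Mrpl39 the NRF1 letters match both strands, with overlap, and no other matches printed overlap. Over the 87 nuclear genes of the respiratory chain and ATP synthase, 70 had an entry, and 27.1% held the NRF1 letters, 22.9% the ETS/GABP letters and 8.57% the YY1 letters. Of the 61 cytosolic ribosomal protein genes with an entry, 37.7% held the ETS/GABP letters, more than in the mitochondrial family. The NRF1 letters were in 11.5% of them and the YY1 letters in 4.92%. Promoters of the mitochondrial ribosomal protein genes had a median GC content of 58.3% and a median observed over expected CpG ratio of 0.818. All promoters had 56.3% and 0.586, and those of genes marked in at least 1 library 61.0% and 0.782. The 16 members marked in 4 or 5 libraries held the ETS/GABP letters in 31.2% and the NRF1 letters in 25.0% of promoters. Among the 22 members marked in 0 or 1 library the shares were 36.4% and 31.8%. The YY1 letters were in 3 of the 16 (18.8%) and 0 of the 22, and the CCAAT box in 37.5% and 22.7%. These counts are small, and no test was made.

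The lists differ much in length. WT replicates 1, 2 and 3 have 21340, 72362 and 106605 peaks, and HOM replicates 1, 2 and 3 have 48102, 1462 and 15184. Read totals are not in the lists, so the depth is known only indirectly, from the background pileup behind the fold values. It was 1.48, 1.48 and 1.23 reads in WT replicates 1, 2 and 3, against 1.65, 0.558 and 1.38 in HOM. The background was thus lowest in HOM replicate 2 and next lowest in WT replicate 3, the longest list. What sets the length of a list was not tested. HOM replicate 2 stands apart, with peaks of median width 84 bp where the other medians are 232 to 291 bp, and values that rest on it are given with and without it. Of 10 cardiomyocyte genes such as Ttn and Tnnt2, 9 or 10 were marked in each library but HOM replicate 2, where none was. The 6 fibroblast genes and the 6 endothelial genes were unmarked in every library, and at most 1 of 4 immune genes and 3 of 4 smooth muscle and pericyte genes were marked. No library of either genotype had a peak inside Nppa. Inside Nppb, WT replicates 2 and 3 had 1 peak each, and no HOM library had any. WT replicate 1 had none either, so this check of the labels does not separate that library from HOM. Within 1 kb of Nppa, each WT library and HOM replicate 1 had 1 peak.

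Mitochondrial ribosomal protein genes were marked more often than protein-coding genes in general in 5 of the 6 lists. In WT replicates 1, 2 and 3, 20, 52 and 68 of the 78 genes were marked, which is 25.6%, 66.7% and 87.2%, beside a background over all protein-coding genes of 11.7%, 32.2% and 42.7%. In HOM replicates 1, 2 and 3, 38, 0 and 11 were marked, which is 48.7%, 0% and 14.1%, where all protein-coding genes gave 22.9%, 0.384% and 8.08%. The excess over all protein-coding genes was 20.7 ± 17.2 percentage points (SD, n = 6 libraries). It was positive in every library but HOM replicate 2 and largest in the longest list, where it reached 44.5 points. As a ratio it varied less, between 1.75 and 2.20 in the 5 lists with a marked member. No test was made, since the genes were chosen with results of these data known.

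**Figure D1:**
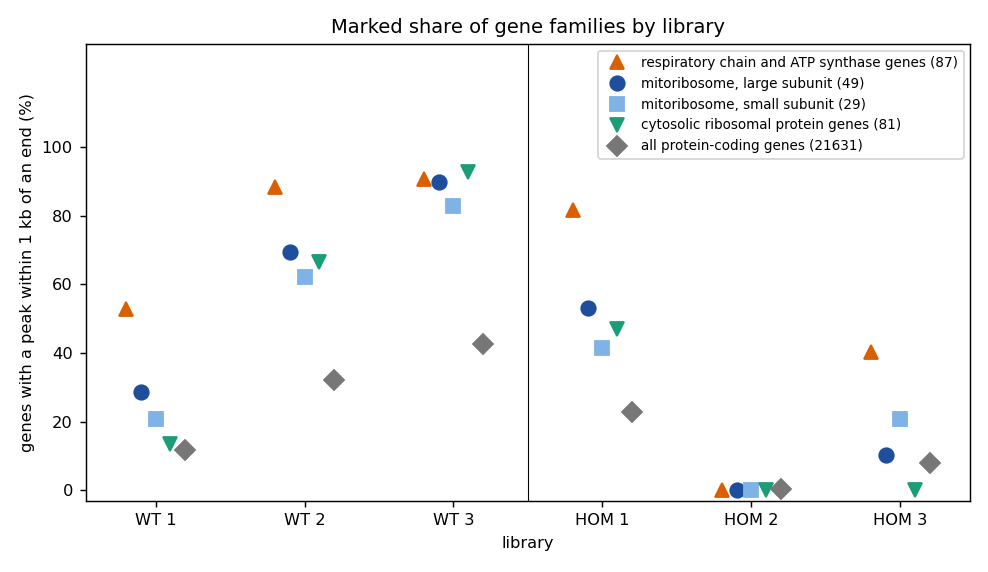
Share of genes with a peak within 1 kb of an annotated end (y axis, percent) in each of the 6 libraries (x axis), for 5 sets of genes, with symbols offset sideways for legibility. Both subunits of the mitochondrial ribosome lie above all protein-coding genes in every library but HOM replicate 2, where 0 of 78 genes were marked.

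Respiratory chain and ATP synthase genes, whose products work beside those that the mitochondrial ribosome makes, were marked more often still. Their shares were 52.9%, 88.5% and 90.8% in WT, against 81.6%, 0% and 40.2% in HOM, so the difference of the mitochondrial ribosomal protein genes from them averaged -18.6 points over the 6 libraries. The 81 cytosolic ribosomal protein genes, which carry the same task in the cytosol, had shares of 13.6%, 66.7% and 92.6% in WT, against 46.9%, 0% and 0% in HOM. The mitochondrial family was above the cytosolic one by 3.76 points on average, below it in WT replicate 3 and level with it in WT replicate 2.

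The share followed the length of the list. WT had 59.8 ± 31.3% and HOM 20.9 ± 25.1% of the family marked (SD, n = 3 each), a HOM minus WT difference of -38.9 points, and the values of the genotypes overlapped. Without HOM replicate 2 the difference was -28.4 points. With 1 library left out it ran from -25.2 (without WT replicate 3) to -56.0 (without WT replicate 1). All protein-coding genes moved the same way, from 28.8% to 10.5%. Without HOM replicate 2, and with the 15184 strongest peaks of every list kept, the WT libraries had 16.7%, 14.1% and 25.6% and HOM replicates 1 and 3 had 20.5% and 14.1%. At that length the means were 18.8 ± 6.06% in WT (SD, n = 3) and 17.3 ± 4.53% in HOM (SD, n = 2), so that the difference between genotypes was -1.50 points, smaller than either SD.

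At the strongest peaks of a list the family was near the background. Among the 1000 strongest peaks of each list, 1 member (1.28%) was marked in WT replicate 1, beside 0.490% of all protein-coding genes, and none in the other 5 lists, where all genes gave 0.180% to 0.749%. With 5000 peaks, the WT lists marked 7.69%, 3.85% and 5.13% of the family and HOM replicates 1 and 3 marked 3.85% and 1.28%, beside 2.82%, 3.43% and 4.68% and 3.27% and 2.76% of all genes. The family was thus above all genes in 4 of these 5 lists, by fewer than 5 points. Respiratory chain and ATP synthase genes were already at 13.8% to 25.3% at that length. Between 10000 and 40000 peaks the family went from 15.4% to 60.3% in WT replicate 3. Over the same range all protein-coding genes went from 9.65% to 28.9% and the cytosolic ribosomal protein genes from 16% to 61.7%.

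**Figure D2:**
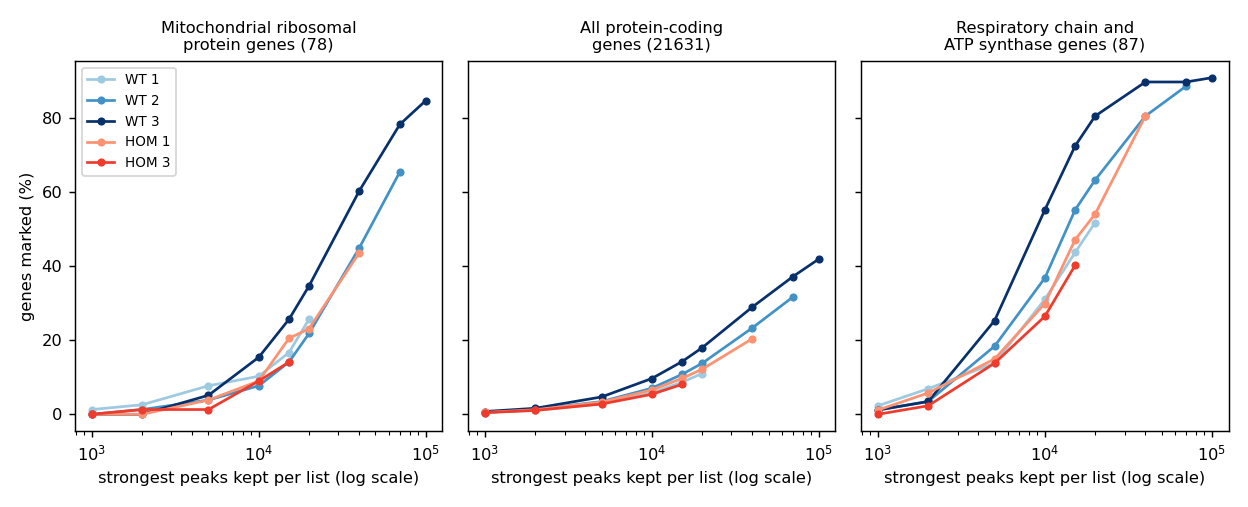
Share of genes marked (y axis, percent) when each list is cut to its strongest peaks (x axis, number kept, log scale), for 3 sets of genes and the 5 libraries other than HOM replicate 2, whose list ends at 1462 peaks. The mitochondrial ribosomal protein genes lie within 5 points of all genes up to 5000 peaks. They lie above all genes at 20000 in the lists that reach it, all but HOM replicate 3, which ends at 15184 peaks. The respiratory chain and ATP synthase genes rise earlier.

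The strongest peak at a marked member was usually of middling rank in its list. Ranks are given as the percentile of the peak's fold enrichment, the peak caller's value for the summit over background, among all peaks of the full list. Median percentiles at marked members were 35.1, 57.6 and 77.7 in the WT lists, then 54.0 and 40.4 for HOM replicates 1 and 3. Marked protein-coding genes in general had 55.3, 67.3 and 77.7, and 61.4 and 61.6. The members therefore ranked lower in 4 lists and level in WT replicate 3, and the mean difference was -11.7 ± 8.97 percentile points (SD, n = 5 libraries). It was -4.04 with windows of 2 kb, -3.58 with the 50% stronger peaks and -4.82 with the median over all peaks at a gene in place of the strongest. With the 15184 strongest peaks of every list it was -6.97, and in WT replicate 1 it went from -20.2 to 0.0. For genes with no other gene end within 1 kb it was -6.11. Marked respiratory chain and ATP synthase genes stood at 55.3, 84.2 and 91.8 in WT, against 72.6 and 61.6 in HOM replicates 1 and 3. In the authors' values a fold corresponds to a whole number of reads piled up at the summit. The medians behind these ranks were 10, 11 and 13 reads at members in WT, against 11.5 and 10 in HOM, beside 11, 12 and 13 and 12 and 11 at all marked genes. A difference of a single read thus moves a peak by many percentile points, and the ranks are coarse.

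Peak width showed no steady difference. The strongest peak at members had a median width of 231.5, 254 and 539.5 bp in WT, against 221 and 172 bp in HOM replicates 1 and 3. The medians at all marked genes were 230, 334 and 458 bp and 277 and 226 bp. The log2 ratio averaged -0.17 ± 0.28 (SD, n = 5 libraries), which is within its spread. Members had wider peaks than marked genes in general in the WT replicate 3 list and narrower ones in WT replicate 2 and both HOM lists. With the 15184 strongest peaks of every list, 2 of these directions turned. The log2 ratio was then -0.258 in WT replicate 3 and 0.082 in HOM replicate 1. Respiratory chain and ATP synthase genes reached 1298 bp in WT replicate 3.

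Subunits were compared by symbol, although Mrps30 and Mrps18a encode large subunit proteins and Mrps36 a part of another complex. In WT, 28.6%, 69.4% and 89.8% of the large subunit genes and 20.7%, 62.1% and 82.8% of the small subunit genes were marked. HOM replicate 1 had 53.1% beside 41.4%, HOM replicate 3 had 10.2% beside 20.7%, the reverse order, and HOM replicate 2 had none of either. The large minus small difference was 3.91 ± 8.00 points (SD, n = 6), smaller than its spread. With Mrps30 and Mrps18a counted in the large subunit and Mrps36 left out it was 2.71 points. With 1 library left out it ran from 2.35 (without HOM replicate 1) to 6.78 (without HOM replicate 3), and it was 4.69 without HOM replicate 2. Windows of 2 kb gave 7.41 points, 5 libraries at equal list length 4.83, and genes with no other protein-coding gene end within 1 kb -0.06. Proteins with a bacterial counterpart (46 genes) and those without (32 genes) had 87.0% and 87.5% marked in WT replicate 3. In WT replicate 2 they had 60.9% and 75.0%, and in HOM replicate 1 the order turned, with 52.2% and 43.8%.

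The marked sets overlapped about as much as over all genes. All 20 members marked in WT replicate 1 and all 52 marked in WT replicate 2 were also marked in WT replicate 3. The 11 members marked in HOM replicate 3 were all marked in WT replicates 2 and 3. Over all protein-coding genes the same overlaps were 98.6% and 95.9%, and 97.0% and 99.8%. Other overlaps were partial. Of the 20 members marked in WT replicate 1, 19 were marked in WT replicate 2 and 16 in HOM replicate 1, which is 95% and 80%, beside 94.3% and 84.6% of all genes. Of the 38 of HOM replicate 1, 34 were marked in WT replicate 2 (89.5%, beside 89.8%). Of the 11 of HOM replicate 3, 7 were marked in WT replicate 1 (63.6%, beside 62.8%) and 9 in HOM replicate 1 (81.8%, beside 88.1%). Only Mrpl49 and Mrps9, whose products belong to the large and the small subunit, were marked in HOM replicate 1 and in no WT library, each by 1 peak of 4.53-fold and 4.15-fold enrichment. That is 2 of 78 (2.56%), beside 0.314% of all protein-coding genes marked in 1 HOM and no WT library.

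**Figure D3:**
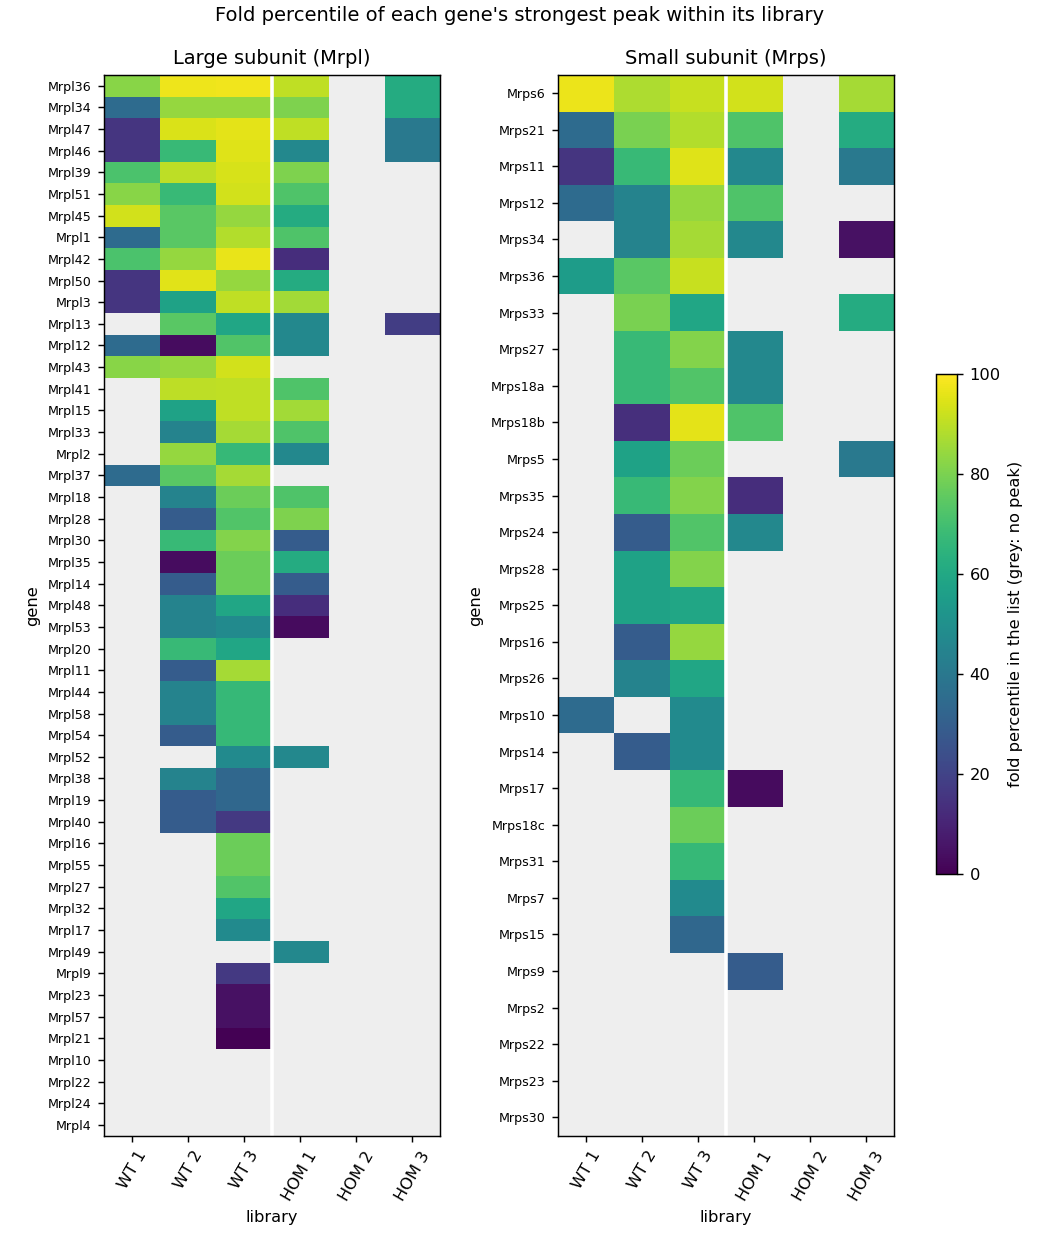
Fold percentile of the strongest peak (colour, 0 to 100) at each of the 49 large and 29 small subunit genes (y axis) in the 6 libraries (x axis), ordered by the number of libraries marked and then by mean percentile, with grey for no peak. The HOM replicate 2 column is empty and the WT replicate 3 column, from the longest list, is the fullest.

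Marked in 5 libraries, that is in every library but HOM replicate 2, were 7 of the 78 genes (8.97%), beside 4.96% of all protein-coding genes marked in at least 5. They were Mrpl34, Mrpl36, Mrpl46, Mrpl47, Mrps6, Mrps11 and Mrps21. All but Mrpl46 encode proteins with a bacterial counterpart. Without HOM replicate 2, 18 members (23.1%) were marked in at least 4 of the remaining 5 libraries, beside 12% of all genes. Without HOM replicate 3 the count was 16 (20.5%), beside 9.73%. Mrpl36, at chr13:73328503-73332178, encodes a small protein of the large subunit. The percentile of its strongest peak was 82.3, 97.5 and 98.0 in WT, against 90.4 and 61.6 in HOM replicates 1 and 3. It was the strongest of the family in WT replicate 3, with 12.5-fold enrichment over a peak of 2447 bp. Its annotated gene edge lies 21 bp from the start of Ndufs6, a complex I subunit gene on the opposite strand. Its listed start lies 2506 bp inside the annotated gene, and in these 5 libraries a peak lay within 1 kb of that start. No strongest peak reached the edge beside Ndufs6. The strongest peaks began at positions 73331362, 73331337 and 73330110 in WT, against 73331704 and 73331771 in HOM replicates 1 and 3. Peaks within 1 kb of its ends numbered 4, 4 and 5 in WT, against 7 and 2 in HOM replicates 1 and 3.

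Mrpl47 (chr3:32727497-32736755), of the large subunit, had strongest peaks of 422, 1358 and 2619 bp in WT, against 987 and 171 bp in HOM replicates 1 and 3. Its start lies 302 bp from that of Ndufb5, another complex I subunit gene, and in 4 of these 5 libraries the strongest peak lay on the Ndufb5 side of its start. The lists cannot assign such a peak to one gene of the pair. The neighbours Mrps11 and Mrpl46 had the same strongest peak in every library, at percentiles 15.5, 67.3 and 95.1 in WT, against 46.6 and 40.4 in HOM replicates 1 and 3. Mrpl34 (chr8:71464926-71465753), one of the shortest genes of the family, had percentiles of 35.1, 84.2 and 84.2 in WT, against 80.6 and 61.6 in HOM replicates 1 and 3. For Mrps21 (chr3:95862634-95871514), with no other gene end within 1 kb, the values were 35.1, 79.9 and 88.6 and then 72.6 and 61.6.

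Mrps6, a small subunit gene at chr16:92058336-92112227, had the highest mean percentile of all members, 91.3. Its strongest peak stood at 97.2, 87.5 and 91.8 in WT, against 93.3 and 86.6 in HOM replicates 1 and 3, so the genotypes overlapped. That peak lay upstream of the start in every list, and the start is 14 bp from that of Slc5a3, the myo-inositol transporter gene on the same strand. Among genes marked in at least 4 libraries the next small subunit genes were Mrps21, Mrps12, Mrps11 and Mrps34, with means of 67.6, 59.2, 52.9 and 45.6. Mrps12, whose product lies at the decoding site of the small subunit, had peaks at percentiles 35.1, 44.7 and 84.2 in WT and 72.6 in HOM replicate 1. In the large subunit Mrpl36 was followed by Mrpl39, Mrpl51, Mrpl45 and Mrpl34, with means of 84.1, 78.8, 78.3 and 69.1. Such means, here and below, are taken over the libraries that mark a gene, which differ between genes. Mrpl36 (97.5 and 98.0) and Mrpl47 (94.2 and 95.8) stood above Mrps6 in WT replicates 2 and 3. Both stood below Mrps6 in WT replicate 1 and HOM replicates 1 and 3. Mrpl45, whose product tethers the human mitochondrial ribosome to the inner membrane, had values of 93.2, 74.4 and 84.2 in WT and 61.4 in HOM replicate 1.

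Width of the strongest peak was averaged over the libraries in which a gene was marked, for members marked in at least 3. By that mean Mrpl47, Mrpl36 and Mrps18b came first (1111, 996 and 840 bp) and Mrpl53, Mrpl28 and Mrpl1 last (184, 211 and 276 bp). Those libraries differ between genes, and peaks are wider in some lists than in others. Over the 34 members marked in WT replicates 2 and 3 and HOM replicate 1, with the mean over these 3 libraries, the order was Mrpl47, Mrpl36 and Mrps21 (1655, 1503 and 1222 bp), and Mrps18b was sixth. At the other end were Mrpl53, Mrpl28 and Mrpl48 (184, 211 and 279 bp), and then Mrpl1 with 309 bp. Mrpl1, of the stalk beside the exit site of the large subunit, had narrow peaks of 177 and 188 bp in WT replicates 1 and 2 and 192 bp in HOM replicate 1, and a peak of 547 bp in WT replicate 3. At Mrpl53 the strongest peak was at most 197 bp wide in any library.

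Marked in 3 WT libraries and no HOM library were Mrpl37, Mrpl43 and Mrps36, 3 of 78 (3.85%) beside 1.10% of all protein-coding genes. The reverse could not occur, since HOM replicate 2 marked no member. Mrpl43 (chr19:45005014-45006442), of the large subunit, had strongest peaks of 238, 198 and 642 bp in WT at percentiles 82.3, 84.2 and 93.0. These peaks lay upstream of its start and inside Twnk, the mitochondrial DNA helicase gene, which overlaps Mrpl43 on the opposite strand with starts 779 bp apart. Mrpl37 (chr4:107055874-107066866), also of the large subunit, had weaker peaks at percentiles 35.1, 74.4 and 86.6. For Mrps36 (chr13:100735940-100744659) the percentiles were 55.3, 74.4 and 91.8. Mrps36 was named for the small subunit, but its product is now known as a part of the 2-oxoglutarate dehydrogenase complex. Without WT replicate 1 the count was 16 (20.5%), beside 9.54% of all genes, and without HOM replicate 1 it was 12 (15.4%), beside 5.83%. At equal list length, without HOM replicate 2, it was 2 (2.56%), beside 0.509%.

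The length covered by peaks within 1 kb of the gene ends was tested for each of the 9612 protein-coding genes covered in any library, 70 of them members, with a two-sided exact permutation test over the 20 assignments of libraries. Every WT library exceeded every HOM library at 5 members, Mrpl37, Mrpl43, Mrpl45, Mrps36 and Mrps6, which is 7.14% of 70 beside 6.40% of all genes tested. The members were thus near the background. The reverse occurred at no member and at 0% of all genes. It needs coverage in HOM replicate 2, which marked no member and 0.384% of all protein-coding genes. With that library it could therefore not occur at members and hardly at other genes. Without HOM replicate 2 the 5 members stayed at 5, beside 6.41%, and the reverse held for 0.0208% of genes. The smallest p that the design allows is 0.1, and the smallest Benjamini-Hochberg adjusted p was 0.654, so the exact permutation test passed no gene, adjusted or at an unadjusted p under 0.05. Mrps6 had 808, 639 and 1043 bp covered in WT, against 447, 0 and 351 bp in HOM, and Mrpl43 had 238, 198 and 958 bp in WT and 0 bp in HOM. The number of members rested on WT replicate 1, the shortest WT list, and on HOM replicate 1, the longest HOM list. Without the former it was 40 of 70 (57.1%), beside 58.9% of all genes tested. Without the latter it was 17 of 68 (25.0%), beside 19.9%.

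Unmarked in every library were 8 members (10.3%), where 55.6% of all protein-coding genes were unmarked. They were Mrpl4, Mrpl10, Mrpl22, Mrpl24, Mrps2, Mrps22, Mrps23 and Mrps30. Some had peaks further inside the gene. Mrps23 held 3, 6 and 9 peaks in WT, against 4, 1 and 5 in HOM, the only member of the 8 with a peak inside the gene in all 6 libraries. Its only listed start, 10282 bp inside the annotated gene, had a peak within 1 kb in 4 libraries. The listed starts of Mrpl24, Mrps2 and Mrpl22 lie 1413, 2115 and 1621 bp inside the annotated genes. They had a peak within 1 kb in 2, 1 and 1 libraries, so unmarked here refers to the annotated gene ends. Mrpl4 and Mrpl24 had 3 peaks each inside the gene in WT replicate 3, and Mrps2 and Mrpl22 had 2. Around Mrps30 the nearest peak was 349040 bp away or farther in every list. Mrps22 had none nearer than 19940 bp. Mrps30, despite its name, encodes a large subunit protein, as does Mrps18a. Mrps18a was marked in WT replicates 2 and 3 and HOM replicate 1, at percentiles 67.3, 73.0 and 46.6.

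Marked members were marked within 1 kb of a start in nearly all cases. Among the 69 members with a listed start, those marked at an end were marked within 1 kb of a start in 20 of 20, 42 of 44 and 59 of 60 cases in WT, and in 34 of 34 and 9 of 9 in HOM replicates 1 and 3. Over all protein-coding genes the shares were 88.1%, 91.2% and 93.2% in WT, against 90.6% and 85.8% in HOM. The exceptions were Mrpl58 in WT replicates 2 and 3 and Mrpl28 in WT replicate 2. Mrpl58 encodes a peptidyl-tRNA hydrolase built into the large subunit. The strongest peak lay over the start in 1, 2 and 16 members in WT, against 1 and 0 in HOM replicates 1 and 3. These are 4.76%, 4.44% and 25.4% of members with a peak near a start in WT, against 2.86% and 0% in HOM, where all genes gave 5.93%, 11.3% and 21.8% in WT and 8.34% and 9.10% in HOM. Summits lay a median of 231, 99 and 100 bp downstream of the start in WT and 129 bp downstream in HOM replicate 1, beside 93, -50, 24 and 62 bp over all genes. In HOM replicate 3, with 11 genes, the median was -287 bp, upstream, beside 50 bp over all genes.

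**Figure D4:**
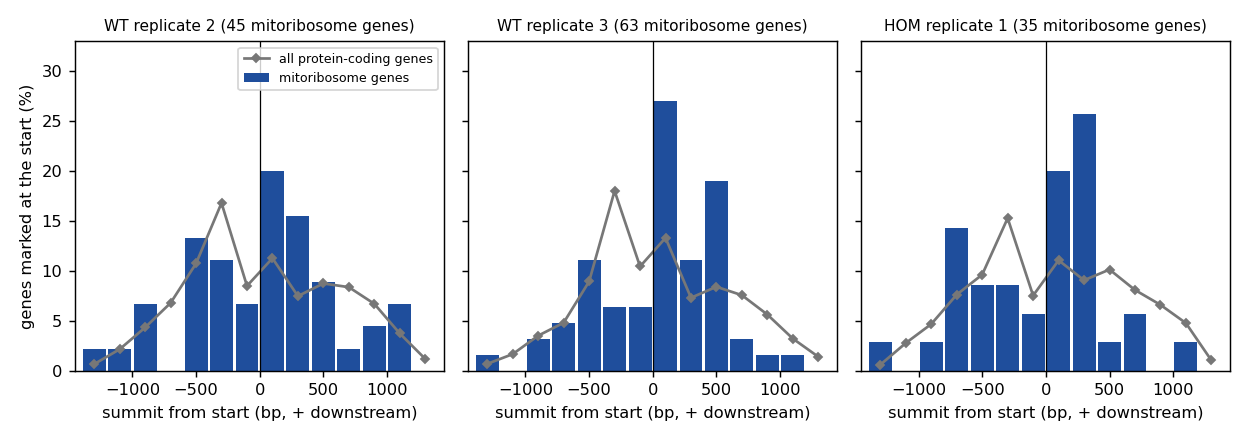
Distance of the strongest peak's summit from the nearest listed start (x axis, bp, positive downstream, bins of 200 bp) for genes with a peak within 1 kb of a start, as a percentage of those genes (y axis), in the 3 longest lists. Bars show the mitochondrial ribosomal protein genes and grey lines all protein-coding genes. Member summits are most frequent just downstream of the start, with medians of 99, 100 and 129 bp.

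Close neighbours were common in the family. Another protein-coding gene ended or began within 1 kb of 44 of the 78 genes (56.4%), beside 25.1% of all protein-coding genes, 37.0% of cytosolic ribosomal protein genes and 56.3% of respiratory chain and ATP synthase genes. Starts were taken here as the outer edges of the annotated genes, and at Mrpl36 that edge lies 2506 bp from the listed start. In 27 members, 39.1% of the 69 with a listed strand, the neighbour was a gene read in the opposite direction from a start within 1 kb. The share was 10.4% over the 17274 protein-coding genes with a listed strand, 16.4% over cytosolic ribosomal protein genes and 32.9% over respiratory chain and ATP synthase genes. The other 17 members had other kinds of neighbour or no listed strand, and at some head-to-head pairs, such as Mrpl43 and Mrpl48, the 2 genes overlap. Head-to-head partners with known mitochondrial roles included Ndufs6, Ndufb5, Sars2, Twnk and Ptcd2, and others had roles elsewhere, such as Psma2, a proteasome subunit gene beside Mrpl32, and Hira, a histone chaperone gene beside Mrpl40. Head-to-head members were marked in 37.0%, 70.4% and 92.6% of cases in WT, against 59.3%, 0% and 22.2% in HOM. All head-to-head protein-coding genes had 22.3%, 63.1% and 82.0% in WT, against 46.1%, 0.501% and 14% in HOM. All 44 members sharing an end had 27.3%, 68.2% and 86.4% in WT, against 52.3%, 0% and 20.5% in HOM, beside 17.6%, 50.4% and 66.8%, and 36.3%, 0.442% and 11.6%, of all genes sharing one. The 34 members with no other gene end within 1 kb had 23.5%, 64.7% and 88.2% in WT, against 44.1%, 0% and 5.88% in HOM. Those 34 genes exceeded protein-coding genes of the same layout, which had 9.65%, 26.1% and 34.6% in WT, against 18.5%, 0.364% and 6.89% in HOM, in 4 of the 6 lists. In HOM replicates 2 and 3 they did not.

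For other genes of mitochondrial translation the lists are small, and counts are given with no test. Of 5 mitochondrial ribosome subunits under other names, 2, 4 and 5 were marked in WT, against 3, 0 and 0 in HOM. Among them Dap3, a small subunit GTP-binding protein gene, had the highest mean percentile, 84.3. Of 11 translation factor genes, 0, 7 and 9 were marked in WT, against 7, 0 and 0 in HOM. Tufm, the elongation factor that brings aminoacyl-tRNA, was marked in 1 library of each genotype. Of 19 genes of ribosome assembly and rRNA modification, 3, 9 and 17 were marked in WT, against 8, 0 and 2 in HOM, and Tfb1m, the small subunit rRNA methyltransferase gene, had a mean percentile of 90.5. Of 17 mitochondrial tRNA synthetase genes, 6, 10 and 15 were marked in WT, against 10, 1 and 3 in HOM. Lars2, for leucine, was marked in all 6 libraries, as were 0.217% of all protein-coding genes, with a mean percentile of 97.2. That includes HOM replicate 2, where none of the 78 members and none of 10 cardiomyocyte genes was marked. Regions prone to artefact signal were not filtered out here, and whether the Lars2 peaks reflect acetylation was not tested. The 3 mitochondrial transcription genes Polrmt, Tfam and Tfb2m gave 0, 2 and 3 in WT, against 2, 0 and 0 in HOM. In bulk nuclei, acetylation in fewer nuclei and weaker acetylation in each cannot be told apart at any of these genes.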

How the data were processed

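H3K27ac CUT&RUN peak lists of 6 libraries, 3 WT and 3 HOM, were analysed. Alignment with BWA, peak calling with MACS2 and the build mm10 are named in the submitters' processing notes, and no versions are given in the sources used here. The deposited lists, 1 per library, hold each peak's position and score, the fold enrichment of its summit (a ratio to background), and −log10 p-value and −log10 q-value columns, as the authors' caller wrote them. They were used only within a list. Positions are 1-based.

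Gene ends came from RefSeq GRCm38.p6 and strands and starts from its promoter table. A gene's strongest peak is that of highest fold, ties by −log10 p. Percentiles always refer to the full list. A Poisson tail on the background pileup, 0.558 to 1.65 reads per library, returned the deposited −log10 p within 4.15e-05, which gave reads at the summit. Lists were shortened by −log10 p. Medians needed 5 marked members.

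Groups came from the sample titles. Members, gene lists, motifs and tests were chosen with earlier results of these data known, so no test was made over members. Covered length per gene was compared by a two-sided exact permutation test with Benjamini-Hochberg adjustment over all genes covered. Named were members marked in 3 libraries of 1 genotype and 0 of the other, in at least 5 libraries or in none, the 5 highest by mean fold percentile per subunit among those marked in at least 4, the 3 widest and the 3 narrowest, and Mrps30, Mrps18a and Mrps36. Other members were named as neighbours or exceptions after their values were seen. Promoters to print were to have a peak over the start in most libraries. As none had, a peak within 1 kb was required. More members met this than were printed, and Mrpl12 was printed although it met no rule for naming. In 200 trials on simulated data, overlap counting gave 0 mismatches. Alternatives were windows of 500 bp and 2 kb, starts only, whole genes, the 50% stronger peaks, a −log10 q of at least 5, at least 100 bp covered, genes without close neighbours, shortened lists, each library left out and a replicate block. After the data were seen, comparisons with the cytosolic ribosomal protein and respiratory chain genes, covered length at equal list length, and subunits by known place were added. The scripts ran under Python 3.11.15 with pandas 2.3.3, numpy 2.4.6 and scipy 1.17.1, and plots were drawn with matplotlib 3.10.9.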

Additional observations from a re-analysis of the deposited data

How the results depend on the processing

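The excess of marked mitochondrial ribosomal protein genes over all protein-coding genes stayed positive (7.92 to 25.0 points) under every alternative but 1. That was limiting all lists to the 1462 peaks of the shortest, where it was -0.355. With another reference in place of all genes, the difference was 3.76 against cytosolic ribosomal protein genes and -18.6 against respiratory chain genes. The lower fold percentile kept its sign under every alternative that gave a value. Ranking by −log10 p, which follows fold within a list, and leaving out HOM replicate 2, which marks no member, returned the same -11.7. Neither is therefore a check. Differences from all marked genes ran from -3.58 to -14.6. Against marked cytosolic ribosomal protein genes the difference was -6.07, and against marked respiratory chain genes -20.1. The HOM minus WT difference fell in size to -0.855 points at the shortest length and to -1.50 with 5 libraries at equal length. Even the 2000 strongest peaks marked at most 2 members in any list. All values at the shortest length, the excess of -0.355 included, therefore lie near the floor and could only be small. The count of members marked in 3 WT and 0 HOM libraries was 0 at the shortest length and ranged from 3 to 16 with 1 library left out. The count marked in at least 5 libraries was 11 with whole genes, 2 with the 50% stronger peaks and 1 at a −log10 q of 5, and ranged from 7 to 18 (18 in at least 4 of 5 libraries without HOM replicate 2, 16 without HOM replicate 3). The count with covered length not overlapping was 3 at a −log10 q of 5 and 4 with 5 libraries at equal list length. It ranged from 5 to 40 with 1 library left out. These counts were not taken over all genes at the shortest length, with whole genes, the 50% stronger peaks or a −log10 q of 5. Nor was covered length at equal list length, so at these settings the members cannot be compared with all genes. The cause of these changes was not tested. Peak width and rank gave no value at the shortest length. Deviations of same-numbered libraries had correlations of -0.0196, -0.205 and -0.043, beside -0.235 to 0.339 for other numbers. List length was not taken out of these deviations, so they cannot decide whether replicate numbers pair the samples. With the replicate block the genotype difference is the same by arithmetic, -38.9 points, so it is no check. The covered length count was 5 and could not have been lower. List length limits every share, and read depth is known only indirectly, from the background pileup.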
